A study of Camelus dromedarius with 10 samples.

Results

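Receptor tyrosine kinases (RTKs) are cell surface receptors whose intracellular part phosphorylates tyrosines when a ligand binds outside the cell. The genes described here are 48 of the 22444 gene IDs in the camel supraoptic nucleus (SON) count table. They were found by matching 50 RTK symbols, RET among them, to Ensembl IDs through the gene names in the study's supplementary data, camel name first and human ortholog name otherwise. PTK7 and EPHA10, 2 of the 48, were matched by the human name, and FGFR3 and LTK were matched to no ID and are not analysed here.

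Ligand binding brings RTK chains together, and the phosphorylated tails then recruit adaptors that feed the RAS and MAP kinase cascade, PI3 kinase and AKT, and phospholipase C gamma. Families differ in what they sense. Neurotrophin and GDNF family receptors serve neuronal survival and growth, VEGF and angiopoietin receptors serve blood vessels, EPH receptors read ephrins held on neighbouring cells, and TAM receptors serve the clearance of dying cells. RET binds GDNF family ligands only together with a GFRA co-receptor, which lends the complex its ligand preference.

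The SON is the hypothalamic nucleus whose magnocellular neurones make vasopressin and oxytocin. Ribosome-depleted total RNA from the SON of 1 side of the brain was sequenced in 10 male dromedary camels. They were 5 controls with free access to food and water and 5 camels after 20 days of water deprivation (WD). The study states that the part sequenced was the rostral SON, which it separates from a caudal SON. For these libraries, SON means the rostral part. Libraries are named by group and label number, as CON2, CON3, CON4, CON5 and CON13, and WD6, WD7, WD8, WD9 and WD15. The labels name no strain or genetic modification in either group. A bulk sample holds every cell type of the dissected tissue, so fewer cells of a type and less RNA per cell cannot be told apart.

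Total counts ran from 1665098 to 8126641 per library, and 5 gene IDs took 27.7% to 76.1% of them. Counts on the 48 RTK genes ran from 1479 in CON13 to 18460 in WD9. Levels are given in CPM (each count relative to the effective size of its library) after TMM normalization, a scaling in which the few dominant IDs have little weight. In CON13 a count was worth 1.19 CPM and in WD6 0.472 CPM, against 0.0859 to 0.235 CPM in the other 8 libraries, so values of low genes are least precise in CON13 and WD6. SIM1, a transcription factor of magnocellular neurones, was present in every library at 42.2 to 103 CPM. The suprachiasmatic markers VIP and LHX1 summed to at most 4.72 CPM in any library. AVP and OXT are not analysed here.

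All 48 RTK genes had counts in all 10 libraries, from 92 counts in all for MST1R to 18970 for NTRK2. In control camels the counts were highest for NTRK2, the receptor of BDNF, at 296 ± 30.7 CPM (SD, n = 5). DDR1, a collagen receptor, had 199 ± 41.4 CPM, and AATK, a kinase of the nervous system, had 199 ± 59.9 CPM. These 3 genes held 40.2% of the summed control level of the 48 genes.

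AXL, a TAM receptor, followed at 91.5 ± 15.2 CPM, and FGFR1 and FGFR2 stood at 63.7 ± 8.81 and 60.4 ± 20.1 CPM. RET was seventh in this order at 53.7 ± 17.0 CPM, next to FLT1 at 51.5 ± 15.8, ERBB2 at 47.98 ± 8.45 and TYRO3 at 39.4 ± 13.03 CPM. From FGFR1 to TYRO3, neighbours in this order differed by less than the larger SD of the pair. It is an order of read counts, which grow with transcript length, and lengths were not used here, so it does not rank the genes by transcript number. A further 17 of the 48 genes had control means under 10 CPM, down to 2.52 ± 1.34 CPM for MST1R. The SD over control camels was 5.67% to 79.4% of the mean, with a median of 31.5%.

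**Figure D1:**
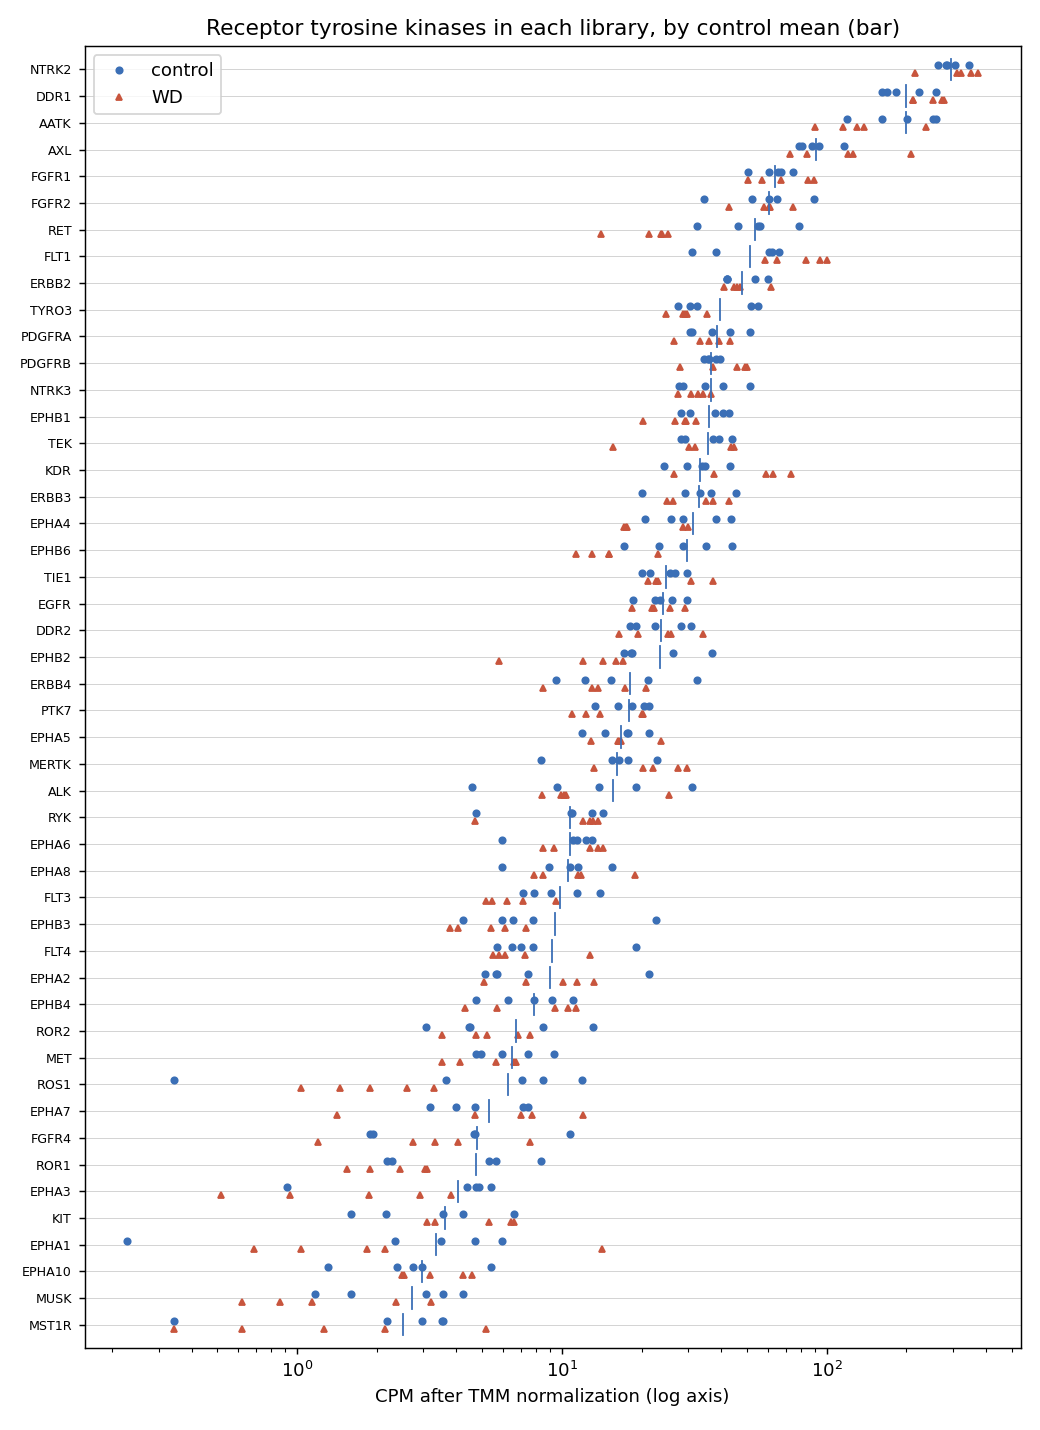
CPM after TMM normalization (log axis) of the 48 RTK genes in each control (circles) and WD (triangles) library, ordered by the control mean, which is drawn as a bar. The genes span from 2.52 CPM for MST1R to 296 CPM for NTRK2, and the RET circles and triangles do not overlap.

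The comparison of WD with control asks which RTK genes differ in the SON after prolonged dehydration. The edgeR quasi-likelihood test was run over the 14432 genes that passed its filter on low counts, among them 47 of the 48 RTK genes. MUSK, the agrin receptor of the neuromuscular junction, did not pass, with 106 counts in all, and had 2.73 ± 1.31 CPM in control and 1.64 ± 1.10 CPM in WD camels. RET was the 1 RTK gene with a Benjamini-Hochberg adjusted p at or below 0.05, and it was lower in WD. Of all genes tested 0.499% passed that threshold, with 0.229% of all genes lower and 0.27% higher in WD.

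An unadjusted p under 0.05 was found for 7 of the 47 genes, against 9.31% of all genes. Of these, 5 were lower (RET, EPHB6, EPHB2, ROS1 and FLT3, background 4.41%) and 2 were higher in WD (FLT1 and KDR, background 4.91%). The log2 fold change was below 0 for 27 genes (21 on library totals alone) and above 0 for 20, with a median of -0.05 against 0.02 over all genes tested. It was smaller than 0.5 in size for 36 of the 47 genes. The WD and control values did not overlap for RET and EPHB2, both lower in WD, against 2.62% of all genes tested in either direction and 1.27% lower in WD.

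**Figure D2:**
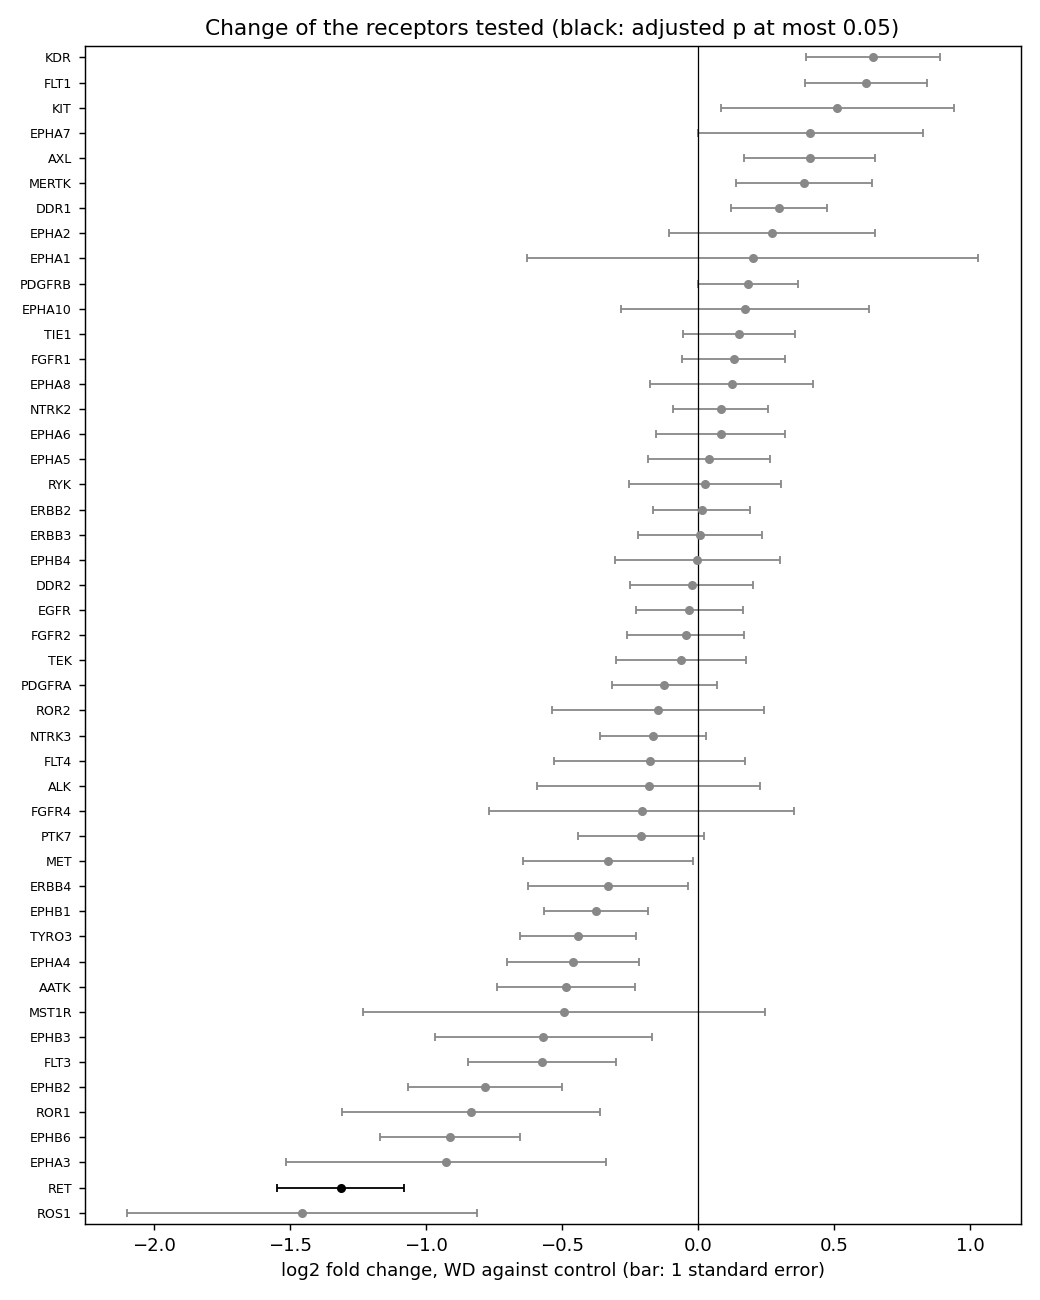
Log2 fold change (WD against control) with its standard error for the 47 RTK genes tested, ordered by value, with genes at an adjusted p of at most 0.05 in black. RET, at -1.31, is the 1 black point, and ROS1 lies lower at -1.45 with a standard error of 0.64.

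RET (ENSCDRG00005007057) had 32.3 CPM in CON2, 55.3 in CON3, 78.9 in CON4, 46.2 in CON5 and 55.9 in CON13. In WD camels it had 23.6 CPM in WD6, 25.2 in WD7, 23.8 in WD8, 21.3 in WD9 and 14.1 in WD15. Every WD value was below every control value, with CON2 the lowest control and WD15 the lowest library. The values rest on 47 to 691 counts per library. The mean fell from 53.7 ± 17.0 to 21.6 ± 4.44 CPM (SD, n = 5 each). This is a log2 fold change of -1.31 with a standard error of 0.23, or 2.48-fold lower (adjusted p = 0.0123, edgeR's quasi-likelihood test, Benjamini-Hochberg over the 14432 genes).

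The adjusted p of RET in DESeq2's Wald test was 7.36e-05, where 1.27% of genes passed. Leaving out any 1 library gave log2 fold changes from -1.48 to -1.13 and edgeR adjusted p values from 0.0046 to 0.0418. Among the 5 libraries with the most counts, the 2 controls (CON4, CON5) lay at 46.2 and 78.9 CPM and the 3 WD libraries (WD7, WD8, WD9) between 21.3 and 25.2 CPM. Among the other 5, the 3 controls (CON2, CON3, CON13) lay between 32.3 and 55.9 CPM and the 2 WD libraries (WD6, WD15) at 23.6 and 14.1 CPM. With depth group as a covariate the edgeR adjusted p was 8.4e-04, where 1.55% of genes passed with RET as the 1 RTK gene, and with RNA integrity as a covariate it was 0.0184.

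The call of RET was lost when libraries were scaled by their totals alone, with a log2 fold change of -1.15 and an edgeR adjusted p of 0.9999. On that scale RET had 28.2 to 91.9 CPM in control and 11.8 to 33.0 CPM in WD libraries, and CON13 at 28.2 CPM overlapped with WD7, WD8 and WD9. Those totals include the 5 dominant gene IDs. Scaling by totals without these IDs was not run, so their part in the lost call was not tested. TMM normalization after removal of the 5 IDs gave an edgeR adjusted p of 0.0122, near the 0.0123 with all IDs.

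Of 6 magnocellular marker genes listed, 3 were matched to an ID. SIM1 stood at 70.6 ± 21.9 CPM in control and 68.4 ± 15.7 CPM in WD camels (adjusted p = 0.973, edgeR). OTP, another transcription factor of these neurones, had 39.3 ± 11.9 and 25.5 ± 7.20 CPM (log2 fold change -0.58, adjusted p = 0.454, edgeR). PDYN, the dynorphin precursor, rose in WD (log2 fold change 1.93, adjusted p = 3.02e-04, edgeR). The summed level of the 3 ranged from 188 to 334 CPM in control and from 522 to 876 CPM in WD libraries.

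Within a library, RET per SIM1 ran from 0.61 to 0.874 in control and from 0.243 to 0.391 in WD libraries, with no overlap. The medians were 0.768 and 0.307. CON2, which had the lowest RET level among controls, also had the lowest SIM1 level at 42.2 CPM, and its ratio of 0.764 was near the control median. RET per OTP had medians of 1.33 in control and 0.797 in WD libraries, and the groups overlapped between 1.03 and 1.06. These ratios were chosen after the values were seen and carry no test.

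Markers of other cell types were set beside the fall of RET. All 6 tested oligodendrocyte markers had log2 fold changes below 0 (5 on library totals alone), with summed levels of 105 to 292 CPM in control and 107 to 218 CPM in WD. All 5 mural cell markers were also below 0 (3 on library totals alone), with sums of 34.2 to 47.3 CPM in control and 18.9 to 35.5 CPM in WD. HEYL among them, a Notch target, had a log2 fold change of -1.16 with adjusted p values of 0.104 in edgeR, 0.0351 in DESeq2 and 0.00206 in edgeR with depth group as a covariate. Of 4 fibroblast and meningeal markers tested 3 were below 0, and COL1A1, a fibrillar collagen, fell (log2 fold change -1.04, adjusted p = 0.0239, edgeR). Its call was lost on library totals alone and without any 1 of 8 libraries, and it was kept without WD6 or without CON3. Over these 10 fits, each without 1 library, the edgeR adjusted p ran from 0.00686 to 0.094 and the log2 fold change from -1.17 to -0.95. COL3A1, another fibrillar collagen, had 32.7 to 47.9 CPM in control and 14.5 to 30.4 CPM in WD libraries without overlap (log2 fold change -0.86, adjusted p = 0.0858 in edgeR, 0.00765 in DESeq2 and 0.0204 in edgeR with depth group as a covariate). The sums of that list were 75.3 to 109 CPM in control and 43.3 to 78.8 CPM in WD. The 2 GABA neurone markers, GAD1 and GAD2, summed to 20.0 to 33.5 CPM in control and 11.8 to 33.5 CPM in WD. Of the 5 astrocyte markers tested 3 were above 0 and 2 below, with sums of 278 to 456 CPM in control and 321 to 487 CPM in WD. The 3 oligodendrocyte precursor markers, 1 above 0 and 2 below, summed to 46.4 to 117 CPM in control and 42.3 to 95.8 CPM in WD. All 8 microglial markers were above 0, with sums of 219 to 363 CPM in control and 276 to 858 CPM in WD. The unadjusted p was under 0.05 for 5 of the 8, all higher in WD (62.5%, against 4.91% of all genes tested). PTPRC among them, a leucocyte phosphatase, had a log2 fold change of 0.90 with an adjusted p of 0.229 in edgeR and 0.121 in DESeq2, and was called with depth group as a covariate (0.97, adjusted p = 0.0179, edgeR). No matched marker in these lists was at 0 throughout, and the part of these cells in the RET result was not tested.

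**Figure D3:**
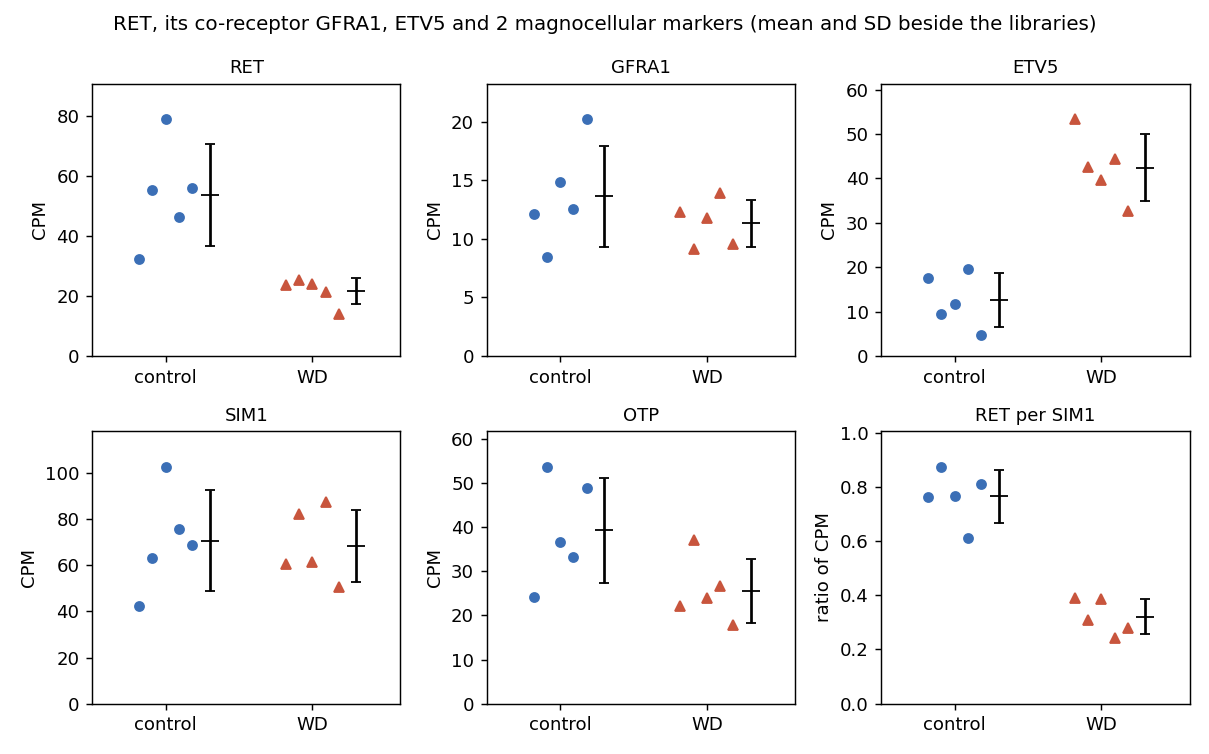
CPM of RET, GFRA1, ETV5, SIM1 and OTP, and the ratio of RET to SIM1, in each control (circles) and WD (triangles) library, with the mean and SD at the right of each group. RET and its ratio to SIM1 are lower in every WD library than in any control, ETV5 is higher in every WD library, and GFRA1, SIM1 and OTP overlap between groups.

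The GDNF family list holds 10 ligands and co-receptors, of which 7 were matched and 2 were tested. GFRA1, the preferred co-receptor for GDNF, had 12.1, 8.47, 14.8, 12.5 and 20.2 CPM in the controls CON2, CON3, CON4, CON5 and CON13. It had 12.3, 9.13, 11.8, 13.9 and 9.53 CPM in WD6, WD7, WD8, WD9 and WD15. The groups overlapped, and the log2 fold change was -0.20 with a standard error of 0.24 (adjusted p = 0.862, edgeR). GFRA2, the preferred co-receptor for neurturin, had 2.49 ± 0.732 CPM in control and 2.78 ± 0.462 CPM in WD camels (adjusted p = 0.928, edgeR).

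The ligands themselves were near the limit of counting. GDNF had 18 counts in all 10 libraries together and NRTN, neurturin, had 7. The other co-receptors GFRA3, GFRAL and GFRA4 had 43, 22 and 13 counts. None of these 5 passed the filter on low counts, so the filtered edgeR test did not include them. In DESeq2's Wald test GFRA3 had a log2 fold change of -1.76 with a standard error of 0.985 (adjusted p = 0.54). The others had no adjusted p there. At so few counts the lack of a call does not show that a gene was unchanged. RET per GFRA1 had medians of 3.69 in control and 1.92 in WD libraries, with overlapping ranges of 2.67 to 6.53 and 1.48 to 2.76.

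The EPH receptors form the largest family, with 14 genes, all tested and none called. The log2 fold change was below 0 for all 5 EPHB genes (4 in DESeq2 and on library totals alone, where EPHB4 turned) and for 2 of the 9 EPHA genes (3 on library totals alone). EPHB receptors bind mainly the transmembrane ephrin-B ligands and EPHA receptors mainly the membrane-anchored ephrin-A ligands. The summed EPHB level ran from 74.1 to 149 CPM in control and from 51.9 to 82.6 CPM in WD libraries.

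EPHB2 (ENSCDRG00005014531), which acts at excitatory synapses, had 17.2, 26.3, 18.4, 18.2 and 36.9 CPM in CON2, CON3, CON4, CON5 and CON13. It had 17.0, 14.3, 16.0, 12.0 and 5.80 CPM in WD6, WD7, WD8, WD9 and WD15. The groups did not overlap, but WD6 and CON2 differed by less than the value of 1 count in WD6. EPHB2 had a log2 fold change of -0.78 with a standard error of 0.28 (adjusted p = 0.357, edgeR).

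EPHB6 (ENSCDRG00005006214), whose kinase domain is inactive, had 28.7, 35.0, 17.1, 23.3 and 44.0 CPM in CON2, CON3, CON4, CON5 and CON13. It had 23.1, 15.1, 12.99, 11.3 and 15.1 CPM in WD6, WD7, WD8, WD9 and WD15. Only WD6 overlapped with controls, namely with CON4, and CON5 lay just above WD6. EPHB6 had a log2 fold change of -0.91 with a standard error of 0.26, the smallest p among RTK genes after RET (adjusted p = 0.192 in edgeR and 0.0608 in DESeq2).

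EPHB1 had 35.9 ± 6.41 CPM in control and 27.6 ± 4.48 CPM in WD, and EPHB3 had 9.41 ± 7.48 and 5.32 ± 1.47 CPM. The EPHB3 control mean includes 22.6 CPM in CON13, which rests on 19 counts. EPHB4, a receptor of venous endothelium, had 7.82 ± 2.45 and 8.26 ± 3.09 CPM with a log2 fold change of -0.0024.

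Among EPHA genes, EPHA4 was the highest in counts and had 31.3 ± 9.30 CPM in control and 22.2 ± 6.59 CPM in WD (log2 fold change -0.46, adjusted p = 0.602, edgeR). EPHA5 had 16.7 ± 3.60 and 17.2 ± 3.93 CPM, EPHA6 10.8 ± 2.79 and 11.7 ± 2.66 CPM, and EPHA8 10.5 ± 3.52 and 11.7 ± 4.38 CPM in control and WD. EPHA2 had 9.06 ± 6.96 and 9.42 ± 3.25 CPM, and EPHA7 5.29 ± 1.90 and 6.58 ± 3.92 CPM. The lowest were EPHA3 at 4.07 ± 1.80 and 2.01 ± 1.37 CPM, EPHA1 at 3.34 ± 2.20 and 3.97 ± 5.72 CPM, and EPHA10 at 2.96 ± 1.51 and 3.41 ± 0.968 CPM. The WD mean of EPHA1 holds 14.2 CPM in WD6, against 0.688 to 2.16 CPM in the other 4 WD libraries, and without WD6 its log2 fold change was -1.06 against 0.20 with all libraries (not called in either). Adjusted p values of the 9 EPHA genes ran from 0.602 to 0.974 in edgeR.

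All 8 ephrins were matched and 6 were tested, with none called in edgeR. EFNA3 had 3.61, 4.47, 3.99, 3.64 and 9.51 CPM in CON2, CON3, CON4, CON5 and CON13, and 0.944, 1.01, 2.29, 1.72 and 0.414 CPM in WD6, WD7, WD8, WD9 and WD15. The groups did not overlap, on 104 counts in control and 47 in WD libraries. The log2 fold change was -1.77 with a standard error of 0.51 (adjusted p = 0.197 in edgeR and 0.0406 in DESeq2, so the call depends on the tool).

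EFNB3 had 21.3 to 25.7 CPM in controls. WD6 stood at 36.3 CPM and the other 4 WD libraries at 4.56 to 11.03 CPM. With WD6 the log2 fold change was -0.94 (adjusted p = 0.474, edgeR), and without it -1.58 (adjusted p = 0.00308, edgeR), so that WD6 decides this call.

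**Figure D4:**
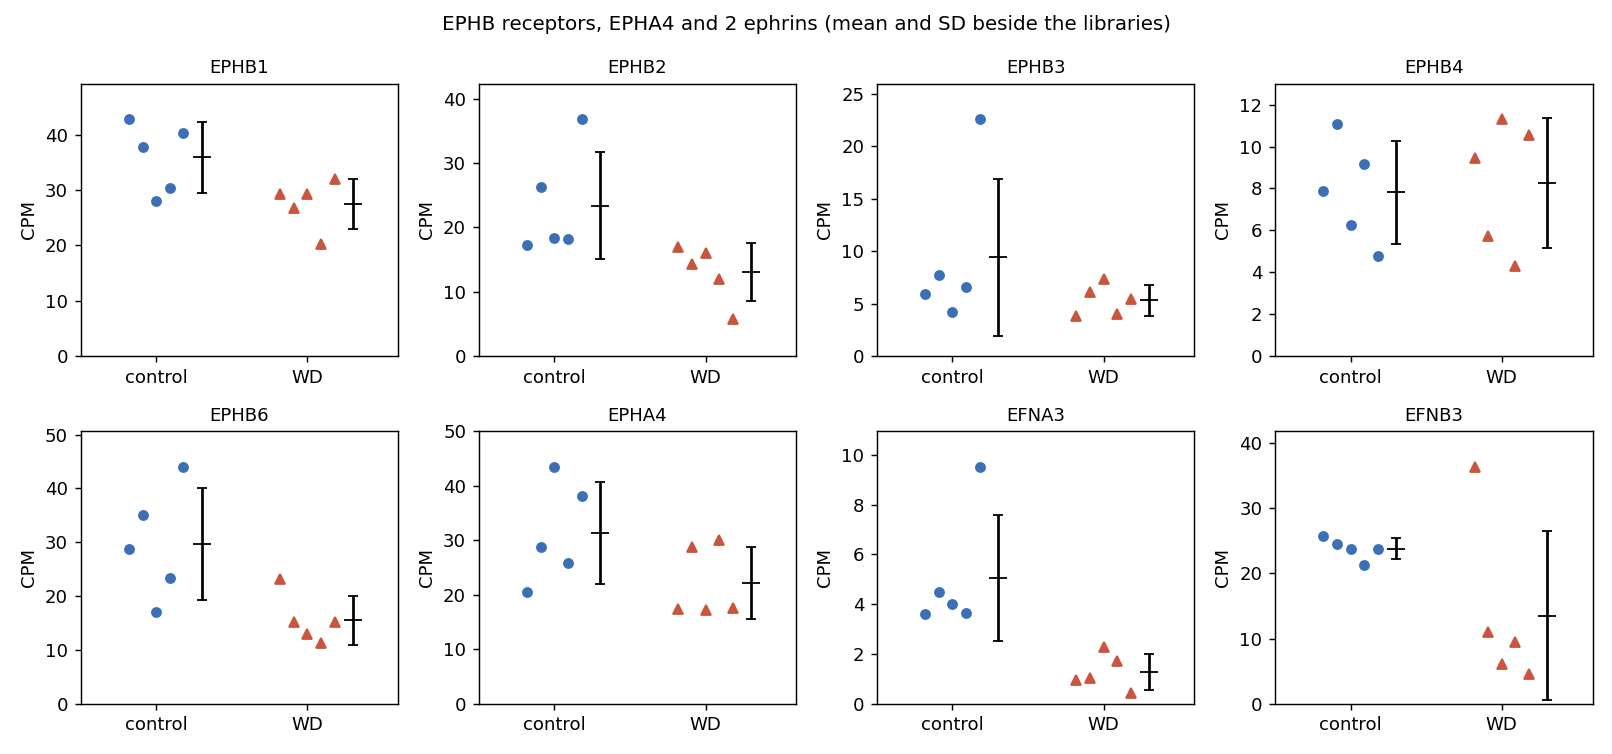
CPM of the 5 EPHB receptors, EPHA4 and the ephrins EFNA3 and EFNB3 in each control (circles) and WD (triangles) library, with the mean and SD at the right of each group. EPHB2 and EFNA3 do not overlap between groups, and WD6 is the EFNB3 value at 36.3 CPM.

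Among the VEGF and angiopoietin receptors, FLT1 and KDR had higher WD means and none of the 5 genes was called. FLT1 (ENSCDRG00005003978), which binds VEGF-A and placental growth factor, had 65.8, 31.0, 62.2, 60.6 and 38.0 CPM in CON2, CON3, CON4, CON5 and CON13. It had 64.7, 58.6, 94.3, 83.4 and 100 CPM in WD6, WD7, WD8, WD9 and WD15. WD8, WD9 and WD15 lay above every control, and WD6 and WD7 lay within the control range. FLT1 had a log2 fold change of 0.62 with a standard error of 0.22 (adjusted p = 0.362, edgeR).

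KDR (ENSCDRG00005002066), the main signalling receptor of VEGF-A in endothelium, had 43.3, 24.2, 34.6, 33.9 and 29.7 CPM in CON2, CON3, CON4, CON5 and CON13. It had 26.4, 37.5, 59.0, 63.0 and 73.1 CPM in WD6, WD7, WD8, WD9 and WD15. The same 3 WD libraries as for FLT1 lay above every control. The log2 fold change was 0.64 with a standard error of 0.25 (adjusted p = 0.402, edgeR).

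TEK, the angiopoietin receptor, had 35.6 ± 6.73 CPM in control and 33.1 ± 11.8 CPM in WD, and TIE1, its partner, had 24.7 ± 3.94 and 27.0 ± 6.81 CPM. FLT4, the lymphatic VEGF receptor, had 9.20 ± 5.55 and 7.48 ± 3.02 CPM. Their adjusted p values ran from 0.888 to 0.965 in edgeR.

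Of 9 matched endothelial markers 8 were tested, 7 with log2 fold changes above 0 and none called. Their summed level was 261 to 439 CPM in control and 238 to 511 CPM in WD libraries, and none was at 0 throughout. KDR per TIE1 had medians of 1.32 in control and 1.91 in WD libraries, and FLT1 per TIE1 had 2.36 and 2.85, both with overlapping ranges. The part of endothelial content in the FLT1 and KDR values was not tested.

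**Figure D5:**
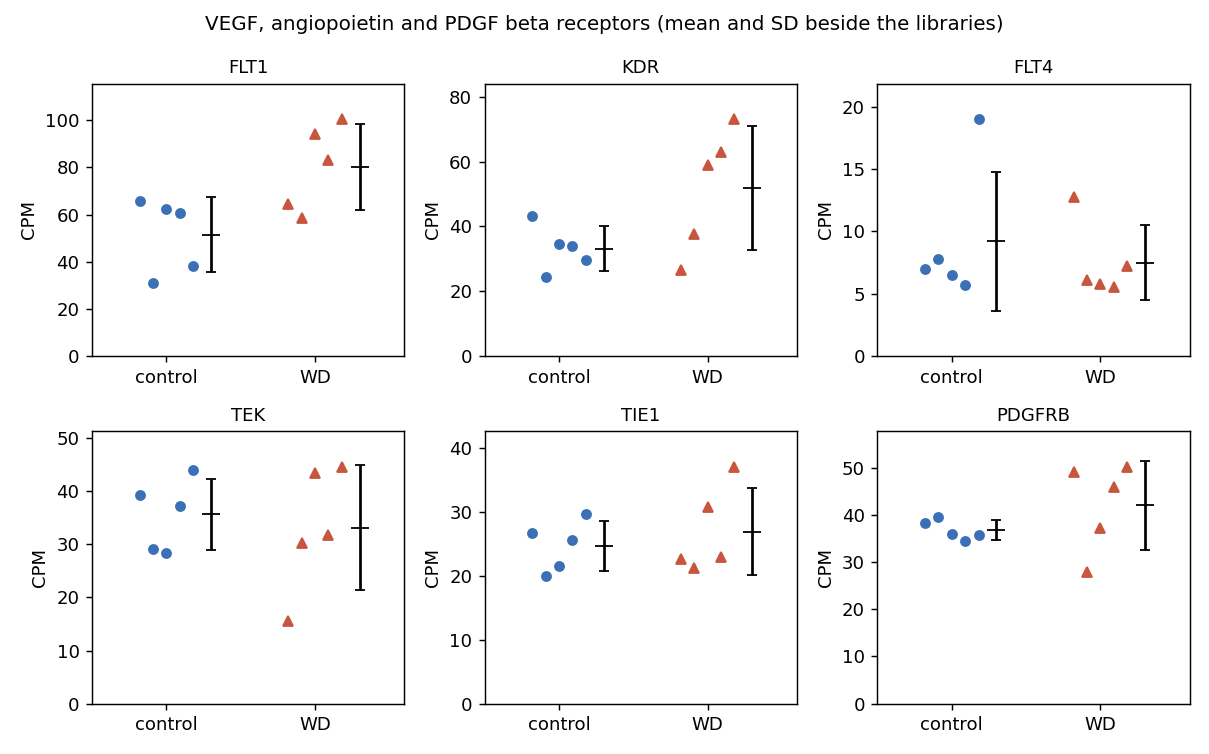
CPM of FLT1, KDR, FLT4, TEK, TIE1 and PDGFRB in each control (circles) and WD (triangles) library, with the mean and SD at the right of each group. WD8, WD9 and WD15 lie above every control for FLT1 and KDR, while FLT4, TEK, TIE1 and PDGFRB overlap between groups.

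PDGFRB, the receptor of mural cells, had 36.7 ± 2.08 CPM in control and 42.0 ± 9.40 CPM in WD, and PDGFRA, the receptor of oligodendrocyte precursors, had 38.5 ± 8.71 and 35.6 ± 6.34 CPM. KIT had 3.63 ± 1.96 and 4.96 ± 1.67 CPM. FLT3 (ENSCDRG00005003607), a receptor of blood cell precursors, had 9.13, 13.9, 7.87, 11.4 and 7.14 CPM in CON2, CON3, CON4, CON5 and CON13. It had 5.19, 5.45, 9.47, 7.13 and 6.22 CPM in WD6, WD7, WD8, WD9 and WD15. WD8 lay within the control range, and WD9 was just under the lowest control, so the groups overlapped through WD8 alone. The log2 fold change was -0.57 with a standard error of 0.27 (adjusted p = 0.536, edgeR).

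The list of VEGF, PDGF, angiopoietin and KIT ligands held 14 matched genes, 13 tested and none called. PDGFA, a ligand of PDGFRA, had 14.2 to 23.8 CPM in control and 3.30 to 12.8 CPM in WD libraries without overlap (log2 fold change -0.85, adjusted p = 0.261, edgeR). PDGFB, which binds PDGFRB, had 6.16 to 11.5 CPM in control and 10.9 to 22.6 CPM in WD, overlapping at WD7 (log2 fold change 0.73, adjusted p = 0.388, edgeR). VEGFA, the ligand of FLT1 and KDR, had 35.6 ± 6.41 and 38.9 ± 6.68 CPM (adjusted p = 0.893, edgeR).

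The TAM receptors AXL, MERTK and TYRO3 bind the bridging ligands GAS6 and PROS1. TYRO3 (ENSCDRG00005019954), the TAM receptor of neurones, had 55.2, 51.8, 30.3, 32.3 and 27.4 CPM in CON2, CON3, CON4, CON5 and CON13. It had 29.7, 29.3, 28.6, 24.7 and 35.4 CPM in WD6, WD7, WD8, WD9 and WD15. CON2 and CON3 were high, and the remaining controls overlapped with the WD libraries (log2 fold change -0.44, standard error 0.21, adjusted p = 0.555, edgeR).

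AXL had 91.5 ± 15.2 CPM in control and 122 ± 53.1 CPM in WD, and MERTK had 16.2 ± 5.24 and 22.6 ± 6.51 CPM. The AXL mean in WD includes 208 CPM in WD15. The log2 fold change of AXL was 0.41 (adjusted p = 0.646, edgeR), against 0.0978 with RNA integrity as a covariate (adjusted p = 0.887, edgeR) and 0.13 without WD15.

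WD15 was also the library with the highest summed level of the 8 microglial markers, 858 CPM, against 276 to 429 CPM in the other WD and 219 to 363 CPM in the control libraries. None of the 8 was called in edgeR without a covariate or in DESeq2, and with depth group as a covariate PTPRC was. The part of microglial content or RNA integrity in the AXL value was not tested further. GAS6 had 81.2 to 102 CPM in control and 60.1 to 78.3 CPM in WD libraries without overlap (log2 fold change -0.41, adjusted p = 0.371, edgeR). PROS1 had 23.9 ± 6.67 and 35.0 ± 7.77 CPM (adjusted p = 0.471, edgeR).

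ROS1 (ENSCDRG00005002608), a receptor related to the insulin receptor, had 8.49, 7.06, 0.342, 3.64 and 11.9 CPM in CON2, CON3, CON4, CON5 and CON13. It had 1.89, 3.30, 2.60, 1.03 and 1.45 CPM in WD6, WD7, WD8, WD9 and WD15. CON4 was the lowest of all libraries with 3 counts, while the other 4 controls lay above every WD library. ROS1 had a log2 fold change of -1.45 with a standard error of 0.64 (adjusted p = 0.491, edgeR). The other 2 genes grouped with it, ALK and AATK, had 15.6 ± 10.1 and 12.9 ± 7.09 CPM, and 199 ± 59.9 and 142 ± 55.7 CPM, in control and WD.

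NTRK2 had 296 ± 30.7 CPM in control and 314 ± 60.4 CPM in WD (log2 fold change 0.08, adjusted p = 0.935, edgeR), and NTRK3, the receptor of NT-3, had 36.6 ± 9.64 and 32.3 ± 3.44 CPM. No neurotrophin gene of the 5 matched passed the filter on low counts. BDNF, named here after its values were seen, had 9 counts over the control libraries and 65 over the WD libraries. It lay between 0 and 0.849 CPM in control and between 0.944 and 3.11 CPM in WD libraries, without overlap, and WD6 at 0.944 CPM rests on 2 counts. In a fit without the filter its adjusted p was 0.4995 in edgeR.

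The 4 ErbB receptors, which bind EGF and neuregulins, held no called gene. EGFR had 24.1 ± 4.16 CPM in control and 23.5 ± 4.11 CPM in WD, ERBB2 47.98 ± 8.45 and 48.02 ± 7.81 CPM, ERBB3 33.0 ± 9.34 and 33.3 ± 7.57 CPM, and ERBB4 18.1 ± 9.03 and 14.6 ± 4.63 CPM. Standard errors of their log2 fold changes were 0.18 to 0.29, and adjusted p values ran from 0.794 to 0.995 in edgeR. Of the 6 tested EGF and neuregulin ligands none was called, with the smallest unadjusted p for EGF (5.19 ± 5.33 and 1.99 ± 1.95 CPM) and HBEGF (10.2 ± 0.869 and 8.16 ± 1.86 CPM).

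The FGF receptors were likewise not called. FGFR1 had 63.7 ± 8.81 CPM in control and 69.7 ± 17.0 CPM in WD, FGFR2 60.4 ± 20.1 and 59.4 ± 11.4 CPM, and FGFR4 4.78 ± 3.59 and 3.78 ± 2.36 CPM. FGF1, the ligand that binds all FGF receptors, had 41.1 to 46.4 CPM in control and 31.0 to 37.6 CPM in WD libraries without overlap (log2 fold change -0.39, standard error 0.16, adjusted p = 0.442, edgeR). KL, the co-receptor klotho, had 5.22 ± 4.01 and 2.23 ± 1.72 CPM.

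The collagen receptors DDR1 and DDR2 had 199 ± 41.4 and 23.7 ± 5.60 CPM in control and 246 ± 32.0 and 24.2 ± 6.76 CPM in WD. Among the WNT-binding receptors, PTK7 had 17.97 ± 3.22 and 15.5 ± 4.40 CPM, RYK 10.8 ± 3.68 and 11.3 ± 3.71 CPM, ROR2 6.72 ± 4.09 and 5.57 ± 1.62 CPM, and ROR1 4.75 ± 2.58 and 2.41 ± 0.691 CPM. MET, the HGF receptor, had 6.48 ± 1.92 and 5.32 ± 1.44 CPM, and MST1R had 2.52 ± 1.34 and 1.91 ± 1.96 CPM. None of these 8 genes was called (adjusted p from 0.633 to 0.986, edgeR).

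Over all ligand and co-receptor lists, 60 of 82 listed genes were matched, 37 were tested and none was called in edgeR, with 23 log2 fold changes below 0 and 14 above (19 and 18 on library totals alone). The WD and control values did not overlap for 4 of the 37, all lower in WD (PDGFA, FGF1, EFNA3 and GAS6, background 1.27%). This count depends on the filter on low counts. EFNA3 was let in with 104 counts in control and 47 in WD libraries. BDNF, with 9 and 65 counts, was not, and its groups did not overlap either, with WD higher. No direction of the lists is read from this count. The list of other ligands and co-receptors also holds LRP4, the agrin co-receptor, at 201 ± 32.1 CPM in control and 279 ± 52.2 CPM in WD (log2 fold change 0.47, adjusted p = 0.398, edgeR).

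Of 23 shared signalling enzymes tested, from RAS and RAF to MAP kinases, PI3 kinase, AKT and SRC, none was called, 13 were above 0 and 10 below (17 and 6 on library totals alone). The smallest unadjusted p values belonged to MAPK3, ERK1 by its protein name, at 81.0 ± 14.8 and 61.9 ± 5.47 CPM, and MAP2K2 at 104 ± 18.5 and 77.9 ± 15.6 CPM in control and WD (adjusted p = 0.453 and 0.491, edgeR).

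Of 18 tested transcription factors that RTK signalling induces or phosphorylates, FOS and ETV5 were called, both higher in WD, which is 2 of 18 against 0.27% of all genes. ETV5, an ETS factor induced downstream of RET in the developing kidney, had 17.6, 9.41, 11.8, 19.5 and 4.76 CPM in CON2, CON3, CON4, CON5 and CON13. It had 53.3, 42.5, 39.6, 44.3 and 32.5 CPM in WD6, WD7, WD8, WD9 and WD15. The lowest WD library lay above the highest control, while RET was lower in every WD library. ETV5 rose from 12.6 ± 6.03 to 42.4 ± 7.55 CPM, a log2 fold change of 1.64 with a standard error of 0.26 (adjusted p = 0.00427, edgeR).

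FOS, an immediate early gene, had 11.7 to 16.6 CPM in control and 26.4 to 56.2 CPM in WD libraries and rose by a log2 fold change of 1.48 (adjusted p = 0.00313, edgeR). ETV1, a relative of ETV5 named here after its values were seen, had 16.6 to 38.0 CPM in control and 9.32 to 16.0 CPM in WD libraries without overlap (log2 fold change -0.73, adjusted p = 0.277, edgeR). ETV4, the other member of that subfamily, had 4.55 ± 3.64 and 3.17 ± 1.52 CPM (adjusted p = 0.93, edgeR). The calls of FOS and ETV5 were lost on library totals alone, with adjusted p values of 0.22 and 0.181 in edgeR, while their log2 fold changes there were 1.63 and 1.76. FOSL2, an AP-1 gene also named after its values were seen, had 67.1 ± 24.5 CPM in control and 124 ± 45.5 CPM in WD (log2 fold change 0.91, adjusted p = 0.194 in edgeR and 0.0617 in DESeq2). With depth group as a covariate FOSL2 was called as a further gene of the list (log2 fold change 1.07, adjusted p = 0.00512, edgeR).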

How the data were processed

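RNA from the SON of 5 control and 5 WD camels was analysed, with the group of each library taken from its title. Per the labels, stranded libraries were made after ribosomal depletion, and the submitters' processing notes name FastQC, STAR, featureCounts and DESeq2. The authors aligned reads to the assembly Camdro2 and deposited whole-number counts per gene ID without normalization. They also deposited a normalized signal, each count divided by a DESeq2 size factor, which was used here as an alternative scaling only. The strand setting of the counting is not given in the sources used here, so overlapping genes are uncertain. No genome, transcript length or sequence was used, and no coordinates are given.

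The RTK genes and all lists were chosen with earlier results of these data known. Other lists were used as far as the study's supplementary classification matched symbols to IDs, and RTK genes also through its differential expression table. Whether matching is independent of WD was not tested. RTK genes given in every library are RET, those called, those whose groups do not overlap, and the 6 others with the smallest unadjusted p. The 10 highest in control and the families are given by mean and SD. Of the other lists, called genes, RET co-receptors and ligands and at most 2 genes with the smallest unadjusted p are named. VEGFA, PROS1, ETV1, ETV4, FOSL2, BDNF, PTPRC, COL1A1, COL3A1 and HEYL were named, and alternatives for BDNF and the last 3 chosen, after their values were seen.

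WD was compared with control by edgeR 4.0.16 (quasi-likelihood F test, robust, TMM, filterByExpr by group) in R 4.3.3, with Benjamini-Hochberg adjustment over 14432 genes and a threshold of 0.05. The standard error is the log2 fold change divided by the square root of F. DESeq2 1.42.0 (Wald test), other scalings, filters, covariates (RNA integrity and fragment size from the study's library sheet, and depth) and leaving out libraries were alternatives. On simulated counts for this comparison (13997 genes, 200 changed), 83% of changes of log2 size 2 and 36% of log2 size 1 were recovered, with 4 false calls among 123. Depth was 1665098 to 8126641 counts per library. Log2 CPM for single-library checks used a prior count of 0.5. Tables and plots used Python 3.11.15, numpy 2.4.6, pandas 2.3.3 and matplotlib 3.10.9. A planned ranking per kilobase of coding sequence was not made, since no lengths were used, and the order is by CPM.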

Additional observations from a re-analysis of the deposited data

Results flagged for a closer look

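In each group of 5 libraries, the highest and lowest log2 CPM of the 47 tested RTK genes were compared with Dixon's critical value of 0.71, the gap to the nearest library as a share of the group's range. Of 94 groups 8 were past it, where chance gives about 1 in 20.

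CON13 and WD6, in which a count is worth most, account for 6 of the 8. In CON13, FLT4 was high at 19.0 CPM (16 counts; other controls 5.68 to 7.76), EPHA2 was high at 21.4 CPM (18 counts; others 5.14 to 7.43), EPHA6 was low at 5.95 CPM (5 counts; others 11.1 to 12.9) and RYK was low at 4.76 CPM (4 counts; others 10.8 to 14.3). In WD6, ALK was high at 25.5 CPM on 54 counts, against 8.42 to 10.4 in the other WD libraries. RYK was low in WD6 at 4.72 CPM on 10 counts, against 12.0 to 13.7 CPM.

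The other 2 were low values in CON4, EPHA3 at 0.913 CPM on 8 counts (other controls 4.37 to 5.41) and MST1R at 0.342 CPM on 3 counts (others 2.18 to 3.57). No RET value was past the critical value.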

How the results depend on the processing

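No paired analysis was possible because control and WD libraries come from different camels. The count of RTK genes called was 1 in every alternative except library totals alone, where it was 0 (RET log2 fold change -1.15, adjusted p = 0.9999). That scaling moved the median log2 fold change of all genes by 0.147 and left 10 genes called against 72, and it gave 0 called pathway genes against 2 and 1 RTK gene without overlap against 2 (EPHB6). Requiring 10 counts in every library tested fewer genes and left 17 RTK genes below 0 against 27, and 1 pathway gene called, since ETV5 has 4 counts in CON13. Leaving out 1 library gave 25 to 32 RTK genes below 0, 2 to 3 called pathway genes and 2 to 5 RTK genes without overlap, the 5 without CON4 (RET, EPHB2, EPHB6, ROS1 and EPHA3). Among all 14432 genes the groups did not overlap for 4.32% without CON4 and for 3.17% to 5.95% over the left-out libraries. Over all genes, 209 were called by DESeq2 and 224 with depth as a covariate, where FOSL2 made the called pathway genes 3. Of the 10 highest RTK genes in control, 9 to 10 remained when a control was left out and 9 by the median. Over the 47 RTK genes tested, 16 turned direction under another tool, scaling, filter or covariate and the range over left-out libraries crossed 0 for 18, each with a log2 fold change of at most 0.21 in size over all libraries. SIM1 ran from -0.21 to 0.13 over left-out libraries. Among the RTK genes given in every library and the 10 highest in control, directions turned for FGFR1 (-0.0398) and ERBB2 (-0.0352) with RNA integrity as a covariate and for FGFR2 with library totals (0.12). Leaving out 1 library gave -0.17 to 0.11 for FGFR2, above 0 without WD6 (0.04) and CON2 (0.11), and -0.12 to 0.10 for ERBB2, below 0 without WD8 (-0.12), CON2 (-0.05), CON4 (-0.05) or CON5 (-0.03). These sizes are under 1 standard error. The cause was not tested. The ranking per kilobase was not run. Depth limits low genes most in CON13 and WD6.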
